A study of Mus musculus with 9 samples.

Results

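The perineuronal net is a lattice of extracellular matrix that wraps certain neurons of the adult brain. Long hyaluronan chains are bound by the lecticans, chondroitin sulphate proteoglycans named aggrecan, brevican, neurocan and versican, link proteins of the Hapln family lock this binding, and tenascins cross-link the lecticans at their other end. In the hippocampus such nets surround mainly parvalbumin interneurons and CA2 pyramidal neurons, and a looser matrix of the same molecules fills the neuropil and the nodes of Ranvier. The 10 genes described here are the 4 lecticans (Acan, Bcan, Ncan, Vcan), the link proteins Hapln1 and Hapln4, the tenascins Tnr and Tnc, and the transmembrane proteoglycans Cspg5 (neuroglycan C) and Ptprz1 (a receptor phosphatase whose secreted form is phosphacan). They were picked by symbol, each had 1 row, and all 10 of the 18275 genes in the deposited table were found.

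RNA-Seq libraries were made from the hippocampus of 4 Nestin;BrafKE/+ and 5 Braf+/+ male mice, 11 to 15 weeks old and labelled as strain C57BL/6N, with 1 library per mouse. Nestin;BrafKE/+ mice (genotype label K499E) have 1 floxed mutant allele of Braf, whose product is an overactive kinase. Nestin-Cre turns the allele on in neural stem cells, so that neurons, astrocytes and oligodendrocytes all descend from recombined cells. The Braf+/+ mice (genotype label WT) were littermates, whether they carried the Cre transgene is not given in the sources used here, and the RNA came from whole tissue, in which fewer cells of a type and less RNA per cell cannot be told apart. The library names fall into 3 series, called A (1 mutant, 3 control), B (2 mutant, 1 control) and C (1 mutant, 1 control) below.

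Values are the authors' normalised counts, already adjusted for batches, and the library totals ran from 19551312 to 20091532. The number of reads behind a value is therefore unknown, and precision was read from the spread between libraries. Braf, the gene that carries the mutation, was lower in all 4 mutant libraries (2264 ± 144, SD, n = 4) than in all 5 controls (2786 ± 153, SD, n = 5). Such separation with the mutant libraries lower held for 8.13% of all genes tested. The sources used here give no expected direction for Braf RNA, so its values do not check the labels. Summed choroid plexus markers were 426418 in Braf+/+ replicate 2 and 157676 in Braf+/+ replicate 4, and between 4880 and 38643 in the other libraries. On leaving out either of these controls alone, 0 of the 10 genes passed in limma, the same number as in the full fit. With 0 passing from the start, this cannot show what the choroid plexus content did to the values.

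None of the 10 genes passed an adjusted p of 0.05 in limma, a linear model fitted over all 16196 genes with a mean of at least 10 and with series as a term. Of all genes tested, 2.88% passed, 1.52% with higher and 1.36% with lower values in Nestin;BrafKE/+. Unadjusted, 4 of the 10 were under 0.05, against 18.5% of all genes, and these were Acan, Tnr, Vcan and Bcan. Mutant and control values were fully separate for 2 of the 10, Acan (mutant lower) and Tnr (mutant higher), against 15.7% of all genes in either direction, 8.13% with the mutant libraries lower and 7.62% with them higher. The 10 log2 fold changes had a median of -0.0065, and 4 were positive and 6 negative. The median over all genes tested was 0.00033. The same 4 genes differed in 1 direction within all 3 series, which was also true of 36.6% of all genes tested.

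**Figure D1:**
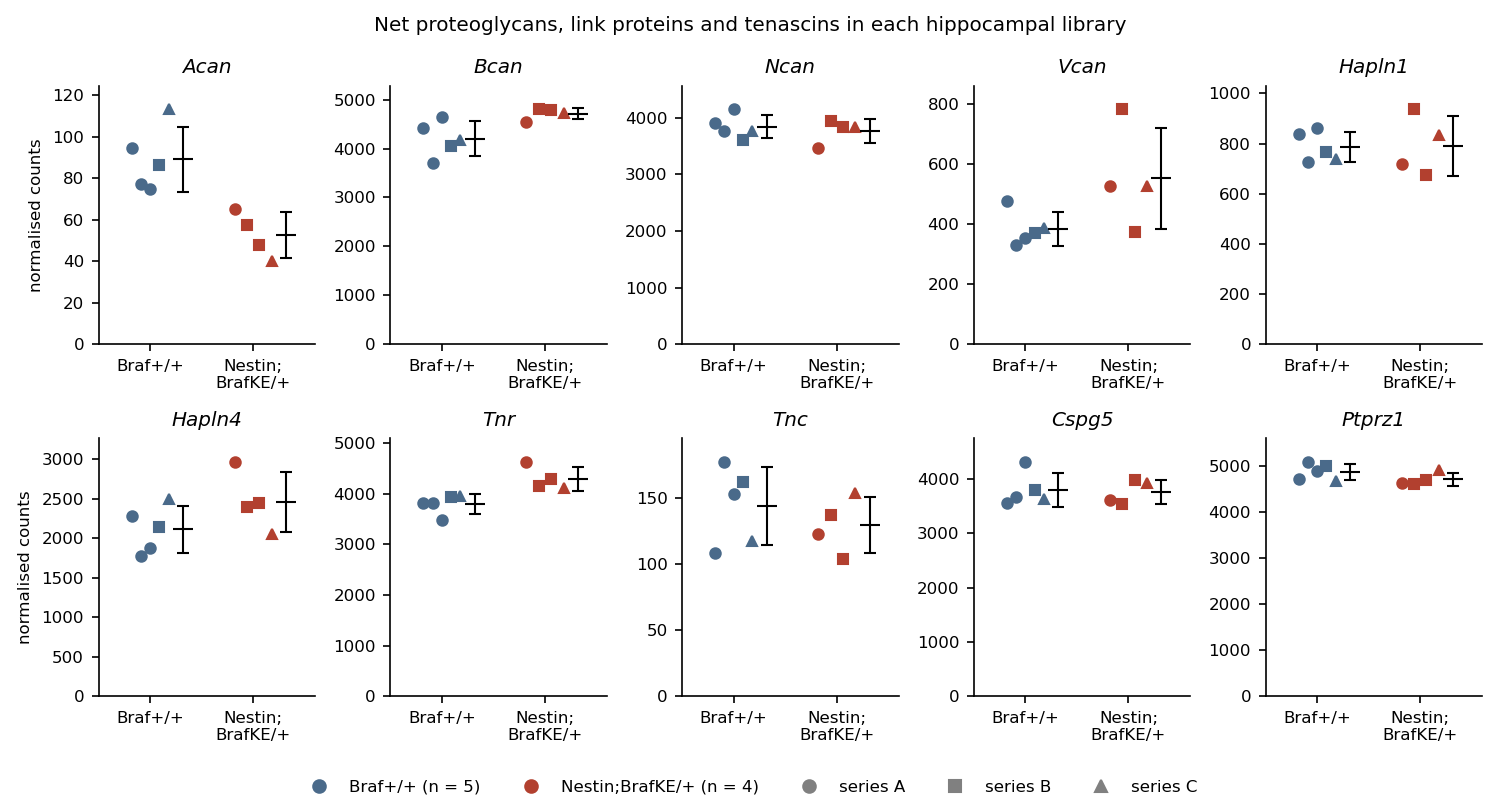
Normalised counts (y axis, from 0) of the 10 genes in each library, grouped by genotype on the x axis. Points are libraries, their shapes mark series A, B and C, and bars show the mean and SD. All 4 Nestin;BrafKE/+ libraries lie below all 5 Braf+/+ libraries for Acan and above them for Tnr.

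Levels of different genes were compared per kilobase of annotated exon. This length joins all annotated exons of a gene, used or not, so the order depends on the annotation. Hapln4 and Ncan overlap, as given below, so their levels may hold reads of each other. In Braf+/+ libraries Hapln4 was the highest at 526 ± 73.6 normalised counts per kb (SD, n = 5), and it overlapped Bcan at 489 ± 42.2. Ncan (384 ± 20.4) and Cspg5 (377 ± 30.5) followed and overlapped each other, as did Tnr (281 ± 14.2) and Ptprz1 (260 ± 9.75). Hapln1 stood apart at 110 ± 8.53. The 3 lowest were Vcan (23.2 ± 3.39), Tnc (18.0 ± 3.69) and Acan (11.5 ± 2.01), and each overlapped its neighbour in this order. The order of the means was the same in Nestin;BrafKE/+ libraries, where Acan stood at 6.81 ± 1.43 (SD, n = 4). The core protein best known from nets was thus the least abundant of these transcripts per length of exon in whole hippocampus.

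**Figure D2:**
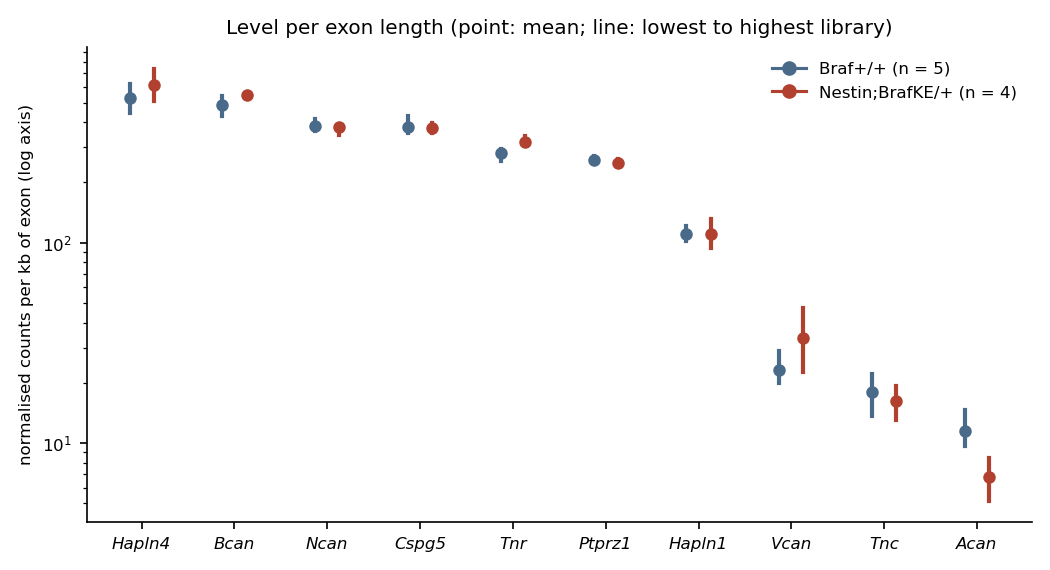
Normalised counts per kb of annotated exon (log axis) for each gene, in Braf+/+ and Nestin;BrafKE/+ libraries. Points are means and lines run from the lowest to the highest library. Levels in controls fall from 526 for Hapln4 to 11.5 for Acan.

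Aggrecan, encoded by Acan (ENSMUSG00000030607, chromosome 7, 78702964 to 78764847 in GRCm39), is the lectican most closely tied to nets. Its normalised counts were 65.3, 57.6, 47.9 and 39.9 in Nestin;BrafKE/+ replicates 1 to 4. In Braf+/+ replicates 1 to 5 they were 94.4, 77.0, 74.7, 86.4 and 113. The highest mutant library thus lay below the lowest control. The log2 difference was -0.76 (SE 0.21, adjusted p = 0.0893), which corresponds to 0.592 times the control level with a 95% interval from 0.428 to 0.819. The two-sided exact permutation p was 0.0417 within series and 0.00794 over all 126 splits, in each case the smallest those splits can give. Because the values had already been adjusted for batches, these p-values may be too small.

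The size of this difference varied between series, with log2 differences of -0.32 (A), -0.71 (B) and -1.48 (C). Leaving out either library of series C brought the estimate to -0.50, with adjusted p-values of 0.220 and 0.238. Each of these fits takes the genotype difference from series A and B alone, so they are the same check. Without Nestin;BrafKE/+ replicate 1 it was -1.04 (adjusted p = 0.103), and without Braf+/+ replicate 4 it was -0.78 (adjusted p = 0.253). Acan passed only in the fit without the series term (adjusted p = 0.0141) and in the one with replicate numbers as a block (0.0424). Its adjusted p lay between 0.0141 and 0.253 over all the settings tried.

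Markers of interneurons in general and of CA2 pyramidal neurons, classes that include the neurons with nets, were measured beside Acan. Of 10 interneuron markers, 7 were higher and 3 lower in Nestin;BrafKE/+. In limma 0 passed and 4 were under 0.05 unadjusted, against 18.5% of all genes. Summed normalised counts of these markers ran from 20269 to 22486 in mutant and from 19109 to 21280 in control libraries. Control means were 6001 for Gad1, 3722 for Sst, 3316 for Gad2 and 415 for Pvalb. The sums therefore say little about the interneurons that bear nets. Pvalb, the calcium-binding protein that names the net-bearing interneurons, had a log2 difference of 0.06 (adjusted p = 0.786). Mutant and control values were fully separate for 3 of the 10 markers, against 15.7% of all genes. Erbb4 (-0.27, limma adjusted p = 0.0727) and Kcnc1 (-0.13, 0.199) were lower in Nestin;BrafKE/+, and Sst (0.24, 0.159) was higher. Of 6 CA2 markers, 3 were higher and 3 lower, and 0 passed in limma, with 3 under 0.05 unadjusted, against the same 18.5%. Their sums ran from 5290 to 5628 in mutant and from 5374 to 5815 in control libraries. The 3 under 0.05 went in different directions. Rgs14, a defining CA2 gene, had a log2 difference of -0.28 (adjusted p = 0.0934), Map3k15 -0.79 (0.120) and Pcp4 0.22 (0.199). Map3k15 had the lowest mean of the list, 63.8 counts, and so adds little to the sums. No marker on either list was at 0 in any library, and their part in the Acan values was not tested.

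Brevican, encoded by Bcan (ENSMUSG00000004892, chromosome 3, 87894835 to 87910177), is a lectican made largely by astrocytes and by cells of the oligodendrocyte line. Its normalised counts were 4548, 4798, 4780 and 4726 in the mutant libraries and 4429, 3698, 4646, 4059 and 4181 in the controls, in order of replicate. The lowest mutant library lay within the range of the controls and the other 3 above it. The log2 difference was 0.17 (SE 0.07, adjusted p = 0.228), with a 95% interval from 0.01 to 0.32, and by series it was 0.10 (A), 0.24 (B) and 0.18 (C). Its two-sided exact permutation p was 0.167 within series and 0.0397 over all libraries. A predicted gene of its own strand overlaps Bcan, so the counts may hold reads of it. Summed counts of 12 astrocyte markers ran from 147553 to 163664 in mutant and from 138186 to 151381 in control libraries. Of these markers, 10 were higher and 3 passed, Gfap, S100b and Aldoc, against 2.88% of all genes tested. The part of the astrocyte markers in the Bcan values was not tested.

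Versican, encoded by Vcan (ENSMUSG00000021614, chromosome 13, 89803431 to 89890814), is the longest lectican, and in the brain it is found in oligodendrocyte precursors and at nodes of Ranvier. Its normalised counts were 527, 782, 375 and 526 in the mutant libraries and 477, 330, 355, 371 and 387 in the controls. Nestin;BrafKE/+ replicate 2 was far above the rest, and replicate 3 lay within the range of the controls. The log2 difference was 0.49 (SE 0.20, adjusted p = 0.221), with a 95% interval from 0.05 to 0.92, and the differences within series were 0.46, 0.55 and 0.44. Without Nestin;BrafKE/+ replicate 2 it was 0.33 (adjusted p = 0.260). Its two-sided exact permutation p was 0.125 within series and 0.0556 over all libraries.

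Neurocan, encoded by Ncan (ENSMUSG00000002341, chromosome 8, 70538926 to 70573523), is a lectican of neurons and astrocytes with high levels in the young brain. Its counts ran from 3466 to 3936 in mutant and from 3599 to 4144 in control libraries. The log2 difference was -0.03 with a 95% interval from -0.16 to 0.11 (adjusted p = 0.858), so a change of more than that range in either direction lay outside the interval.

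The 4 lecticans were also compared as shares of their summed counts per kb of exon, within each library. Bcan took 56.9 ± 1.03% in Nestin;BrafKE/+ (SD, n = 4) and 53.9 ± 1.38% in Braf+/+ (SD, n = 5), and the ranges of 55.5 to 57.8% and 51.4 to 54.8% did not overlap. Ncan took 39.0 ± 0.807% and 42.3 ± 1.52%, and its ranges of 37.8 to 39.6% and 41.2 to 45.0% did not overlap either. Acan took 0.708 ± 0.165% and 1.27 ± 0.233%, and its ranges of 0.531 to 0.920% and 0.978 to 1.62% also did not overlap. Vcan took 3.45 ± 0.967% and 2.56 ± 0.321%, with overlapping ranges. The shares sum to a fixed total and so move together, their sizes depend on the annotated exon lengths, and they were not tested.

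Each lectican gene lies next to a link protein gene, a position the choice of genes did not use. Acan and Hapln3 are 2 bp apart on chromosome 7, Bcan and Hapln2 16.6 kb apart on chromosome 3, and Hapln1 and Vcan 43.5 kb apart on chromosome 13, with 0 protein-coding genes between the members of any pair. Ncan and Hapln4 overlap by 4.61 kb on opposite strands of chromosome 8. The libraries were stranded, but the strand setting of the counting is not given in the sources used here, so reads in that overlap cannot be assigned with certainty.

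In 1 of these pairs a member rose. Bcan had a log2 difference of 0.17, while Hapln2 rose by 1.01. Acan had -0.76, and Hapln3, at 13.1 to 33.8 counts in all libraries, had -0.04 (SE 0.34, adjusted p = 0.964). Ncan had -0.03 and Hapln4 0.22, and Vcan had 0.49 and Hapln1 -0.0032. None of these 6 genes passed. The log2 ratio of Hapln2 to Bcan ran from -2.69 to -2.36 in mutant and from -3.61 to -3.18 in control libraries, without overlap. That of Hapln1 to Vcan ran from 0.26 to 0.84 and from 0.81 to 1.28, with an overlap of 1 mutant and 1 control library. The ratios of the other pairs overlapped as well.

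**Figure D3:**
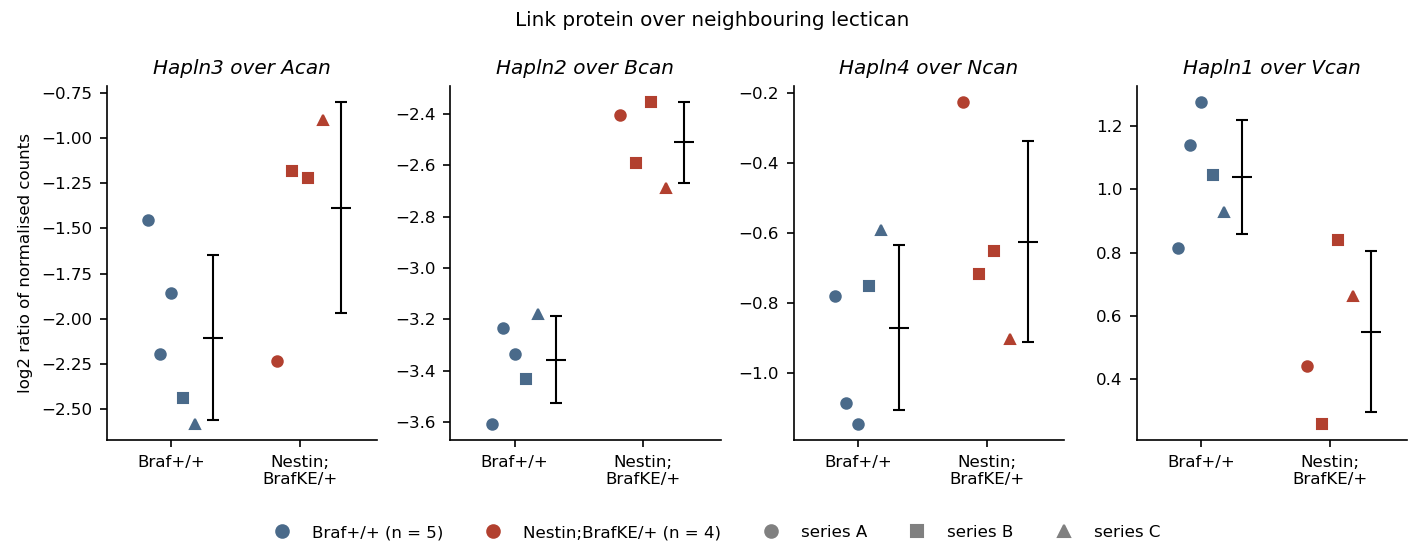
Log2 ratio of the normalised counts of each link protein gene to those of the neighbouring lectican gene (y axis), by genotype and series. Points are libraries and bars show the mean and SD. The ratio of Hapln2 to Bcan is higher in all 4 Nestin;BrafKE/+ than in all 5 Braf+/+ libraries, and the other 3 ratios overlap.

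The upstream sequences of 4 of these genes are shown, the lecticans with the lowest and the highest log2 difference (Acan and Vcan) and the neighbours Bcan and Hapln2, of which one rose and the other did not pass. Each run holds the 250 bases before the RefSeq start site in GRCm38.p6, read 5′ to 3′ on the strand of the gene. The positions are chr7:79052976-79053225 (plus strand) for Acan, chr13:89742513-89742762 (minus) for Vcan, chr3:88000357-88000606 (minus) for Bcan and chr3:88027512-88027761 (minus) for Hapln2. Capitals mark GC boxes (GGGCGG, the letters Sp1 family factors are known for) and the ETS core (CCGGAA, known from factors that ERK activates), on either strand.
Acan: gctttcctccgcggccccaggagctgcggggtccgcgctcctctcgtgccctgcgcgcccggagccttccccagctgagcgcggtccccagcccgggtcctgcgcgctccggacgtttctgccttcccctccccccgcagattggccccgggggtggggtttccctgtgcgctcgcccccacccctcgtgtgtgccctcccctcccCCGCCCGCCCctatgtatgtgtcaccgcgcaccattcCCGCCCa
Vcan: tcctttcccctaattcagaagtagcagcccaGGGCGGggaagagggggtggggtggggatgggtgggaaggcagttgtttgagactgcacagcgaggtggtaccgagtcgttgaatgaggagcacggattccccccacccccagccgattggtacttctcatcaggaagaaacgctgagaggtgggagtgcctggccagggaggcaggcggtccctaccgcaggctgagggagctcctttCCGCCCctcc
Bcan: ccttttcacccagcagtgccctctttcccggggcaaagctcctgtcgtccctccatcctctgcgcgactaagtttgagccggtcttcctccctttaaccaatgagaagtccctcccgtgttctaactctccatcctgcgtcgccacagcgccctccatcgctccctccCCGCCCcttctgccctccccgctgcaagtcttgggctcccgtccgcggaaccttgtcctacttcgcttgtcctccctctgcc
Hapln2: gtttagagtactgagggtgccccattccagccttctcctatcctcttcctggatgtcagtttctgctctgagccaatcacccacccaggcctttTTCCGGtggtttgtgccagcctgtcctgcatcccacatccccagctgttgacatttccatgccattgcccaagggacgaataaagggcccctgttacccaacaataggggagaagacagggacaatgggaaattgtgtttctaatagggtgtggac

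Of the 10 genes, 8 had a window in the RefSeq table, and Hapln4 and Cspg5 had none. A GC box lay in 6 of the 8 (Acan, Bcan, Ncan, Vcan, Tnc and Ptprz1), against 32.7% of all 32851 windows. Of the 3 GC boxes of Acan, 2 overlap each other. The ETS core lay in 0 of the 8 and in 12.03% of all windows, and the AP-1 motif TGANTCA in 0 of the 8 and in 6.75% of all. Of the other matrix genes that rose, 3 had a window. Hapln2 held 1 ETS core and 0 GC boxes, Cspg4 a GC box and no ETS core, and Timp4 none of the 3 motifs. The GC content was 52.4% for Hapln2, against 74.4% for Acan and 62.4% for Vcan. Matches describe letters in these windows and not binding.

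Link proteins tie lecticans to hyaluronan. Hapln1 (ENSMUSG00000021613, chromosome 13, 89686581 to 89759950), the link protein that nets are known to need, had 673 to 936 counts in mutant and 728 to 862 in control libraries. Its log2 difference was -0.0032 (adjusted p = 0.991), with a 95% interval from -0.25 to 0.24. Hapln4 (ENSMUSG00000007594, chromosome 8, 70536106 to 70543533), a brain link protein known as Bral2, ran from 2048 to 2966 in mutant and from 1772 to 2496 in control libraries. Its log2 difference was 0.22 (adjusted p = 0.403) and went from 0.60 in series A over 0.18 in B to -0.29 in C. Without Nestin;BrafKE/+ replicate 1, the highest library, it was -0.02.

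Tenascin-R, encoded by Tnr (ENSMUSG00000015829, chromosome 1, 159351339 to 159759299), is a trimer that gathers lecticans into the lattice and is made by oligodendrocytes and some neurons. Its normalised counts were 4630, 4148, 4291 and 4117 in the mutant libraries and 3824, 3807, 3477, 3931 and 3960 in the controls, and the groups did not overlap. The log2 difference was 0.18 (SE 0.06, adjusted p = 0.151), with a 95% interval from 0.04 to 0.31, and the two-sided exact permutation p was 0.0417 within series, the minimum there. By series it was 0.32 (A), 0.10 (B) and 0.06 (C), and without Nestin;BrafKE/+ replicate 1 it was 0.08 (adjusted p = 0.575). Tnr passed only without the series term (adjusted p = 0.0308). Predicted genes of its own strand overlap Tnr, so the counts may hold reads of them.

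Markers of mature oligodendrocytes were measured beside Tnr. Values were higher in Nestin;BrafKE/+ for all 10, and 4 passed, against 2.88% of all genes tested. Of the 4, Mobp (0.58), Mog (0.53) and Mag (0.41) had the largest log2 differences. Sums of the 10 markers ran from 129016 to 139159 in mutant and from 94429 to 114552 in control libraries. The part of these markers in the Tnr values was not tested.

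Tenascin-C, encoded by Tnc (ENSMUSG00000028364, chromosome 4, 63878014 to 63965443), is a tenascin of radial glia and of wound-reactive astrocytes. It had 104 to 154 counts in mutant and 108 to 177 in control libraries. Its log2 difference was -0.14 (adjusted p = 0.754) with a 95% interval from -0.57 to 0.29, and it was 0.02 without Braf+/+ replicate 4.

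Both transmembrane proteoglycans had overlapping groups. Cspg5 (ENSMUSG00000032482, chromosome 9, 110072851 to 110091644) ran from 3541 to 3978 in mutant and from 3550 to 4319 in control libraries, with a log2 difference of -0.0097 (95% interval from -0.17 to 0.15, adjusted p = 0.961). Ptprz1 (ENSMUSG00000068748, chromosome 6, 22875358 to 23054236), an astrocyte and precursor cell receptor for pleiotrophin, ran from 4616 to 4916 and from 4668 to 5095. Its log2 difference was -0.05 (95% interval from -0.16 to 0.06, adjusted p = 0.648). For 6 of the 10 genes the 95% interval lay wholly between -0.5 and 0.5 on the log2 scale. The exceptions were Acan, Vcan, Tnc and Hapln4.

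**Figure D4:**
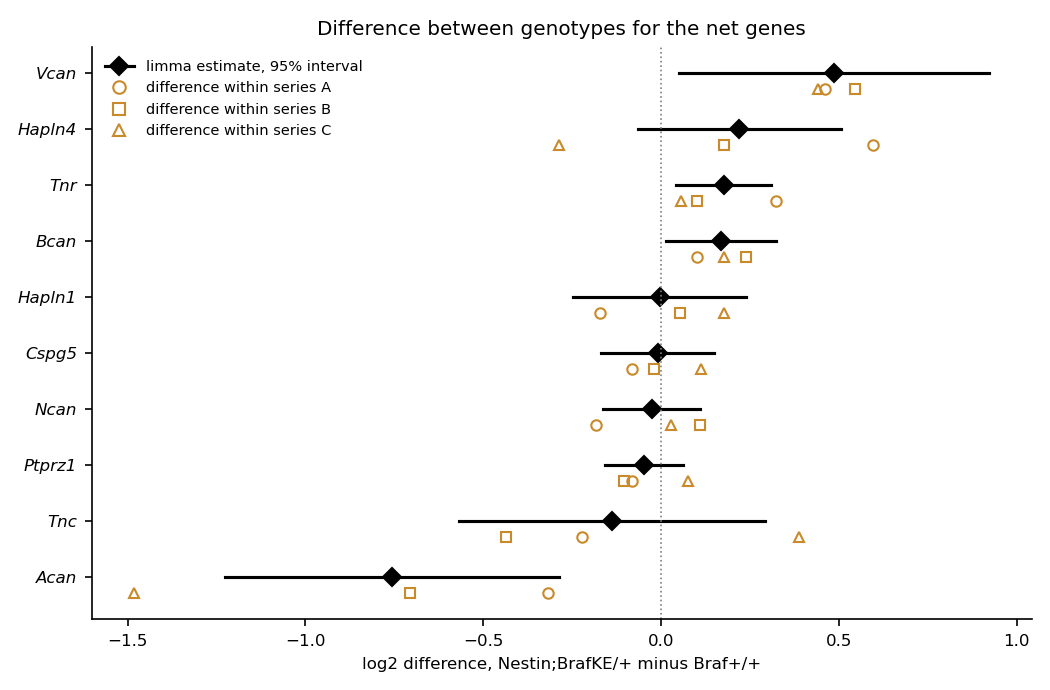
Log2 difference between Nestin;BrafKE/+ and Braf+/+ libraries for each gene. Diamonds and lines are the limma estimates with 95% intervals, and open symbols are the differences within series A, B and C. Acan has the lowest estimate at -0.76 and Vcan the highest at 0.49, and no gene passed an adjusted p of 0.05.

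The other genes of this matrix were taken from 5 lists by role. Of 79 listed genes 72 were tested, 41 were higher and 31 lower in Nestin;BrafKE/+, and 5 passed, all of them higher, while 2.88% of all genes tested passed in either direction. The median log2 difference was 0.05. By role, 1 of 5 genes for hyaluronan and link proteins passed, 1 of 7 other tenascins and proteoglycans, 1 of 18 proteases, hyaluronidases and inhibitors, and 2 of 22 receptors and ligands. Of 20 genes for chondroitin sulphate synthesis, 0 passed in limma and 3 had an unadjusted p under 0.05, against 18.5% of all genes.

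Hapln2 (ENSMUSG00000004894, chromosome 3, 87926800 to 87934890), the link protein of the matrix at nodes of Ranvier, known as Bral1, rose. Its normalised counts were 857, 796, 933 and 732 in the mutant libraries and 363, 392, 460, 376 and 461 in the controls. All mutant libraries lay far above all controls. The level was 2.02 times that of controls (95% interval 1.71 to 2.39), or 1.01 on the log2 scale (SE 0.11, limma adjusted p = 0.00215). By series the difference was 1.09 (A), 1.20 (B) and 0.66 (C). It passed in all 20 other settings, with a highest adjusted p of 0.0395 without Nestin;BrafKE/+ replicate 1. The sums of mature oligodendrocyte markers given above did not overlap between the groups either, and their part in the Hapln2 values was not tested.

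Cspg4 (ENSMUSG00000032911, chromosome 9, 56772317 to 56807187) encodes NG2, the transmembrane proteoglycan of oligodendrocyte precursors and pericytes. Its normalised counts were 502, 475, 505 and 510 in the mutant libraries and 309, 327, 311, 327 and 309 in the controls, so both groups were tight and well apart. It rose by 0.65 on the log2 scale (SE 0.08, limma adjusted p = 0.00261), and the 3 series gave 0.67, 0.58 and 0.72. It passed in all 20 other settings as well, with a highest adjusted p of 0.0473 without Nestin;BrafKE/+ replicate 1. Of 8 precursor markers, Cspg4 among them, 7 were higher and only Cspg4 passed. Their sums ran from 7524 to 8394 in mutant and from 5991 to 7171 in control libraries. Pdgfra, the growth factor receptor that defines these cells, had a log2 difference of 0.27 (adjusted p = 0.0842). The part of precursor number in the values of Cspg4 and Vcan was not tested.

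Timp4, an inhibitor of matrix metalloproteinases, rose from 596 ± 35.9 (SD, n = 5) to 848 ± 57.2 (SD, n = 4), or by a log2 value of 0.51 (SE 0.08, limma adjusted p = 0.00941). The call was lost when Nestin;BrafKE/+ replicate 1 (adjusted p = 0.0674) or Braf+/+ replicate 4 (0.0668) was left out. Nptx2, a secreted pentraxin that gathers AMPA receptors on parvalbumin interneurons, rose from 463 ± 47.3 to 667 ± 37.5, or by a log2 value of 0.53 (SE 0.10, limma adjusted p = 0.0187). Its adjusted p was 0.123 and 0.0592 on leaving out Nestin;BrafKE/+ replicates 1 and 3, and it also failed without Braf+/+ replicate 4 (0.128) and with 4 name prefixes in place of the series (0.0590). Ncam1, a cell adhesion molecule that binds neurocan, rose from 4108 ± 227 to 4960 ± 213, or by a log2 value of 0.27 (SE 0.06, limma adjusted p = 0.0364).

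The call for Ncam1 was the least stable. It failed on leaving out any of 6 libraries, with adjusted p-values of 0.173, 0.0561 and 0.0999 without Nestin;BrafKE/+ replicates 1, 2 and 3, and 0.0643, 0.0588 and 0.187 without Braf+/+ replicates 1, 3 and 4. It also failed with 4 name prefixes (adjusted p = 0.0826) and with array quality weights (0.0686). Timp4 shares part of its locus with Syn2, which runs the other way, and Ncam1 is overlapped by a predicted gene of its own strand, so their counts may hold reads of these neighbours.

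A pair of genes with large differences that did not pass was singled out after the values were seen. Has3, a synthase of hyaluronan, had 231, 215, 102 and 90.7 counts in the mutant libraries and 43.7, 81.0, 47.8, 63.3 and 104 in the controls. Its log2 difference was 1.17 (SE 0.37, adjusted p = 0.126). By series it was 2.04 (A), 1.21 (B) and -0.20 (C), so series C went the other way. It passed in 4 of the 20 other settings (no series term, the replicate block, and without either library of series C), and its highest adjusted p was 0.515. The fits without a library of series C take the difference from series A and B alone and are the same check. Has3 is overlapped by Derpc and Chtf8 on the other strand, so its counts may hold reads of these genes. Csgalnact1, which starts chondroitin sulphate chains, had 259, 182, 237 and 225 counts in the mutant libraries and 273, 331, 314, 374 and 318 in the controls, without overlap. Its log2 difference was -0.52 (SE 0.14, adjusted p = 0.0727), and it was negative within all 3 series. It passed only without the series term, and its highest adjusted p was 0.360. Other genes that did not pass had larger differences than Csgalnact1, among them Otx2 (-0.94), Csgalnact2 (-0.69) and Sema3a (0.67). For Csgalnact2, which acts in the same synthesis, the differences by series were -0.10 (A), -1.98 (B) and 0.15 (C).

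**Figure D5:**
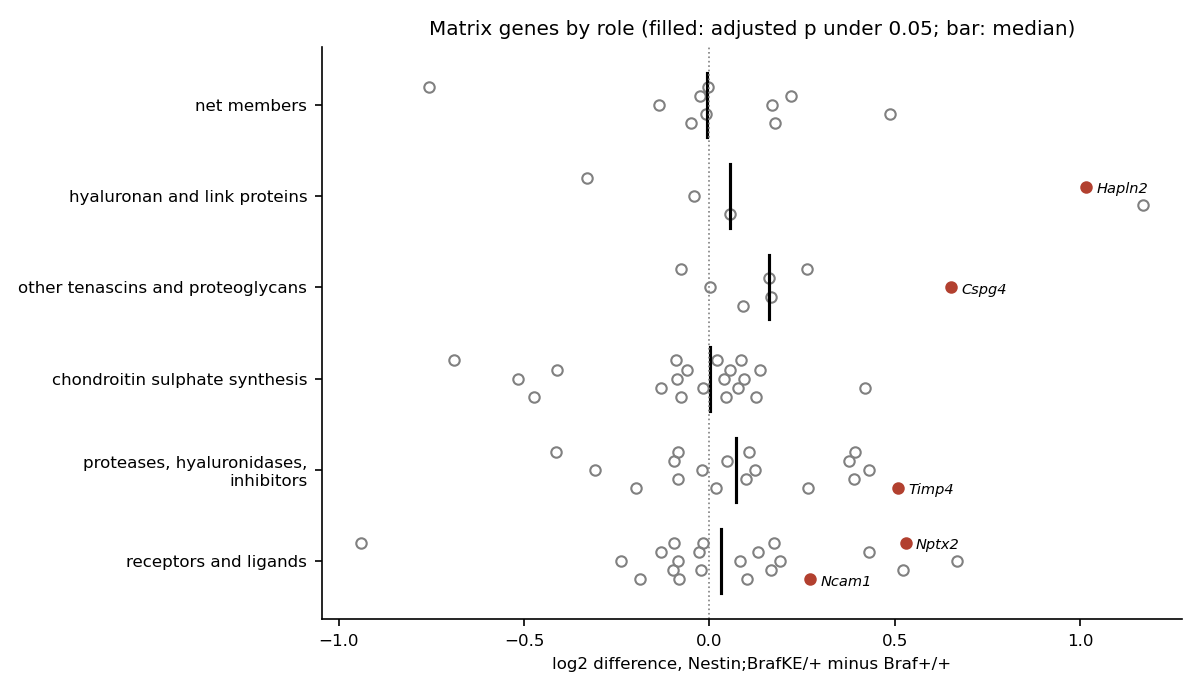
Log2 difference between Nestin;BrafKE/+ and Braf+/+ libraries (x axis) for the 10 net genes and for 72 other matrix genes by role (y axis). Filled points passed an adjusted p of 0.05, open points did not, and bars are medians. All 5 filled points lie to the right of 0, and none belongs to the 10 net genes.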

How the data were processed

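Total RNA of whole hippocampus was sequenced with a stranded mRNA kit, 1 library per mouse. The authors trimmed reads with Trim Galore, aligned them to GRCm39 (Gencode vM28) with STAR, quantified them with Salmon, removed batch effects (which batches is not given in the sources used here) and normalised with DESeq2. The deposited values are therefore a signal in normalised counts. Each was a whole multiple of 1 step per library, from 0.993 to 1.00 (within 0.01), but the multiple for mt-Co1 was 491938 in all 9 libraries, so the multiples do not count sequenced reads. Count models were therefore not used.

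The main test used R 4.3.3 and limma 3.58.1, with lmFit and a trended eBayes, on log2(value + 1), restricted to genes whose mean reached 10. Its terms were genotype and the series read from the library names. A log2 difference of a low gene is slightly understated on this scale. P-values are two-sided, with Benjamini-Hochberg adjustment across the 16196 genes and a threshold of 0.05. The steps were tested on simulated data. Differences of single genes were also tested with exact permutation tests over all libraries (126 arrangements) and within series (24). The authors' batch adjustment came first, so the libraries may not be freely exchangeable. P-values of these tests and of the fit without the series term may therefore be too small. Replicates are separate mice.

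Exonic lengths are unions of the exons in Gencode vM39 (GRCm39), which held 99.5% of the gene IDs, and promoters came from RefSeq on GRCm38.p6. Figures were drawn with Python 3.11.15 and matplotlib 3.10.9.

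The 10 genes, the 5 matrix lists, the 9 marker lists and the tests were chosen with earlier results of these data known. The genes named are the 10 genes, Braf, the matrix genes past the threshold and up to 3 markers per list. Hapln3, Pvalb, Gad1, Gad2, Erbb4, Kcnc1, Sst, Rgs14, Map3k15, Pcp4 and Pdgfra fall outside this rule and were chosen after their values were seen. The same holds for Has3, Csgalnact1, Csgalnact2, Otx2 and Sema3a. The rule also took, for each of the 10 genes past the threshold, the genes most like it across libraries, and none passed. Of the marker lists not given with a gene, 5 of 6 microglia genes were higher and 0 passed (2 at an unadjusted p under 0.05 in limma). Of 8 meningeal genes, 6 were higher and 1 passed (Col1a1, 0.96). Of 7 thalamus and midbrain genes, 3 were higher and 0 passed (0 unadjusted). Of 8 choroid plexus genes, 0 were higher and 0 passed (2 unadjusted). Over all genes tested, 2.88% passed and 18.5% were under 0.05 unadjusted.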

Additional observations from a re-analysis of the deposited data

Results flagged for a closer look

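In 32 groups of values (the 10 genes, Braf and the 5 matrix genes past the threshold, each in both genotypes) 0 held a library that stood apart by Dixon's test at the 95% level, where chance flags about 5% of groups.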

How the results depend on the processing

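The number of the 10 net genes past the threshold was 0 in the fit reported and 0 without any 1 library, 2 without the series term (Acan and Tnr) and 1 with the replicate block (Acan). Of the other matrix genes 5 passed in the fit reported, 16 without the series term, 3 with 4 name prefixes, 12 with the replicate block and between 2 and 7 when 1 library was left out. The lowest count, 2, came without Nestin;BrafKE/+ replicate 1 or Braf+/+ replicate 4, and 3 came without Nestin;BrafKE/+ replicate 3. Over all genes 466 passed, against 2260 without the series term, 165 with 4 name prefixes, 1405 with the replicate block, 258 with array quality weights and between 42 and 371 when 1 library was left out. It was 42 without Nestin;BrafKE/+ replicate 1, 97 without Braf+/+ replicate 4, 169 without Nestin;BrafKE/+ replicate 3 and 278 without Braf+/+ replicate 1. The cause was not tested. For 5 of the 10 genes the estimate changed sign in at least 1 setting. That of Cspg5 was 0.0086 with array quality weights, and with 1 library left out it ran from -0.0528 to 0.0372, that of Hapln1 from -0.0764 to 0.11, Ncan from -0.10 to 0.0741, Hapln4 from -0.0213 to 0.40 and Tnc from -0.32 to 0.0224. By exact permutation 2 of the 10 genes (Acan and Tnr) were under 0.05 within series and 3 (also Bcan) over all libraries. The share of all genes under 0.05 by permutation was not computed, so these counts have no background. Full separation of the groups, as for Acan and Tnr, held for 15.7% of all genes. Acan, Bcan, Vcan, Tnr and Ptprz1 kept their sign in all settings. The log2 difference of Braf (-0.30, adjusted p = 0.0378) did not pass with 4 name prefixes (0.0768), with array quality weights (0.0609) or on leaving out any of 7 libraries. Over all 9 it ran from -0.41 to -0.20. Replicate numbers do not pair the mice. The deviations of same-numbered libraries from their group means correlated across genes with r from -0.39 to 0.41, and 1 of 4 mutant libraries (replicate 4) correlated best with the control of the same number. Neither size factors, quantile normalisation, other pseudocounts, filters nor robust eBayes changed which of the 10 genes or the other matrix genes passed. The SEs were highest for Acan (0.21), Vcan (0.20) and Tnc (0.20), and the depth in reads behind them is unknown.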
